A study of Mus musculus with 6 samples.

Results

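The genes described here are 7 of the 45777 rows of the deposited table: Gad1, Gad2, Slc32a1, Slc6a11, Abat, Gabbr1 and Gabbr2. They were chosen by symbol for their part in making, packaging, clearing and degrading GABA and in sensing it through the GABA-B receptor, and each symbol matched a single row. All 7 passed the filter on low counts. RNA came from whole striatum of 6-week-old ICR mice, an outbred strain, with 3 libraries from offspring of sires given methylphenidate and 3 from offspring of sires given saline. The sires were 6-week-old males injected subcutaneously for 21 days, methylphenidate being given at 15 mg/kg and saline at 10 mL/kg, and the dams were drug-free, per the labels' protocols. Methylphenidate is a stimulant that blocks dopamine and noradrenaline reuptake. The offspring themselves are not labelled as treated, and the labels list 2 females and 1 male in each group. How many sires and litters contributed is not stated in the labels, so the p-values below rest on the spread between these libraries alone, and animals of a group may be siblings.

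GABA is the main inhibitory transmitter of the brain and the transmitter of nearly all striatal neurons, since the medium spiny projection neurons and most local interneurons release it. It is made from glutamate by the decarboxylases encoded by Gad1 and Gad2, loaded into vesicles by the product of Slc32a1, cleared by plasma membrane transporters and broken down in mitochondria by GABA transaminase, encoded by Abat. The GABA-B receptor is a G protein-coupled receptor that works only as a heterodimer of a GABA-binding subunit (Gabbr1) and a subunit that couples to the G protein (Gabbr2). It inhibits transmitter release and opens G protein-gated inwardly rectifying potassium (GIRK) channels.

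Total counts lay between 31360042 and 38844724 per library, and the members had between 3591 and 32776 counts each, so that counting alone contributed a coefficient of variation of at most 1.67%. Libraries are named by group and column number, which could not be tied to a labelled animal or its sex. On the first principal component, with 28.3% of the variance, libraries 3 and 4 of the saline-sired group lay on one side and the other 4 libraries on the other. Summed over 6 choroid plexus markers, saline-sired library 3 had 2020 CPM (counts relative to the TMM-scaled library size) and saline-sired library 4 had 347 CPM. The other 4 libraries had 26.0 to 77.9 CPM. The 12 medium spiny neuron markers, which define the labelled tissue, were all detected, and summed to 6910 to 7650 CPM in methylphenidate-sired libraries, against 8100 to 8760 CPM in saline-sired ones. The 10 markers of cortical excitatory neurons, which release glutamate, were detected as well, at 967 to 1150 CPM in methylphenidate-sired and 356 to 805 CPM in saline-sired libraries. Neither of these summed levels overlapped between the groups.

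The comparison asked whether the GABA genes of the offspring differed with the treatment of the sire. None of the 7 members passed the edgeR quasi-likelihood test after Benjamini-Hochberg adjustment over 17874 genes, against 4 genes or 0.0224% of all genes tested. Gabbr2 was the member with the largest difference, at 1.51 times the saline-sired level, and the only member at an unadjusted p under 0.05, a level that 9.02% of all genes reached (5.07% higher and 3.95% lower). It was also the only member that DESeq2 called, where 1.42% of genes with an adjusted p were called, while limma-voom called 0 members. The fold changes of the other 6 members were all below 1, between 0.880 and 0.997, and each had a 95% interval that held 1. The median log2 fold change over the members was -0.04, beside -0.012 over all genes tested. Of all 17874 genes tested, 8394 had a positive and 9480 a negative fold change, the background for the counts of directions given below. Groups did not overlap in 2 of the 7 members, Gabbr2 and Abat, against 14.8% of all genes (7.84% higher and 7.01% lower).

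**Figure D1:**
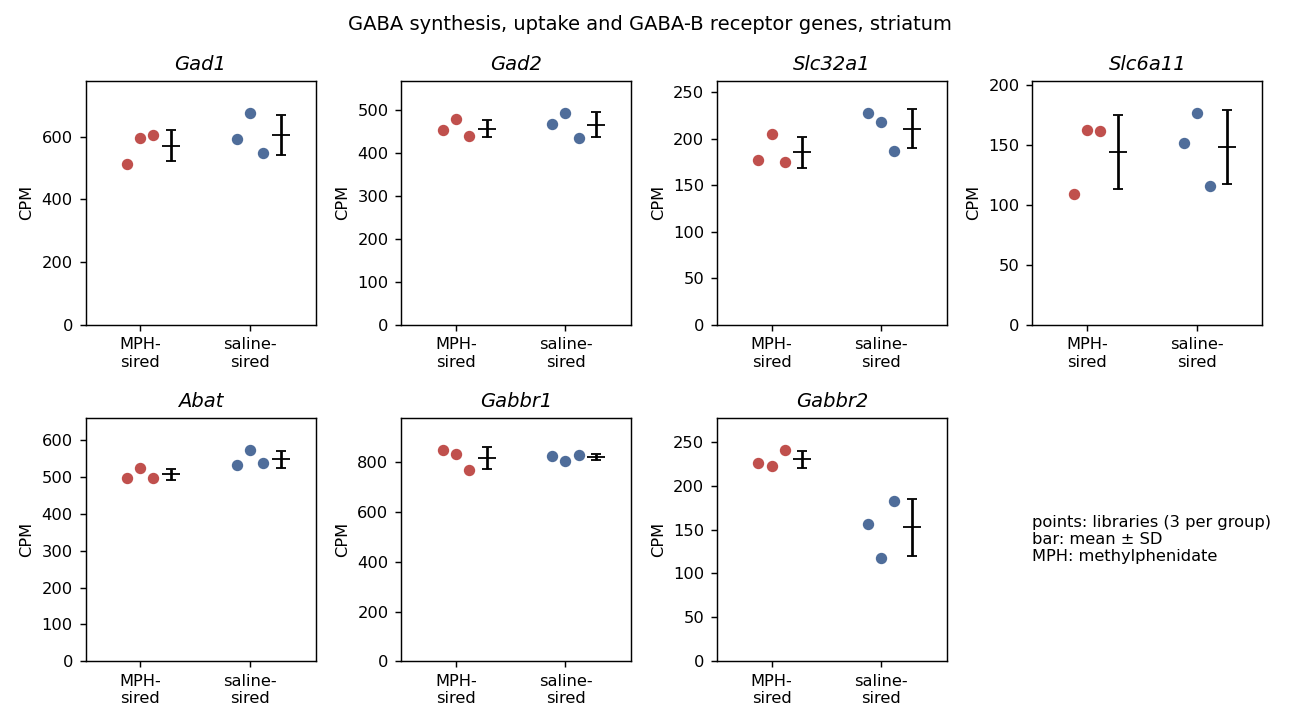
Levels of the 7 member genes in CPM (vertical axes, from 0) in each methylphenidate-sired (red) and saline-sired (blue) library; points are libraries and bars the mean ± SD of 3. Only Gabbr2 and Abat show no overlap between the groups, with Gabbr2 at 222 to 241 CPM in methylphenidate-sired and 118 to 183 CPM in saline-sired libraries.

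Per kilobase of the longest coding transcript, a scale that allows only a rough comparison of genes, Gad1 and Gabbr1 had the highest levels of the members. The counts cover all transcripts of a gene, so the order below depends on the length chosen. For Gad1 the exons of all transcripts merged span 7639 bases, against the 3355 used, while for Slc32a1 both lengths are 2797. Gad1 averaged 170.0 CPM per kilobase in the methylphenidate-sired and 180.0 in the saline-sired group, and Gabbr1 156 CPM per kilobase in both, and the ranges of these 2 genes overlapped. Abat followed at 109 and 118 CPM per kilobase in the methylphenidate-sired and saline-sired groups, and its highest library (124) lay under the lowest of Gad1 and Gabbr1 (147). Gad2 (75.9 to 86.0 CPM per kilobase over the 6 libraries) and Slc32a1 (62.6 to 81.5) overlapped each other below that. Slc6a11 and Gabbr2 were lowest. Gabbr2 stood at 40.0 CPM per kilobase in the methylphenidate-sired and 26.6 in the saline-sired group, and Slc6a11 at 35.1 and 35.8, so the order of these 2 means differed between the groups, although over all 6 libraries their ranges overlapped.

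**Figure D2:**
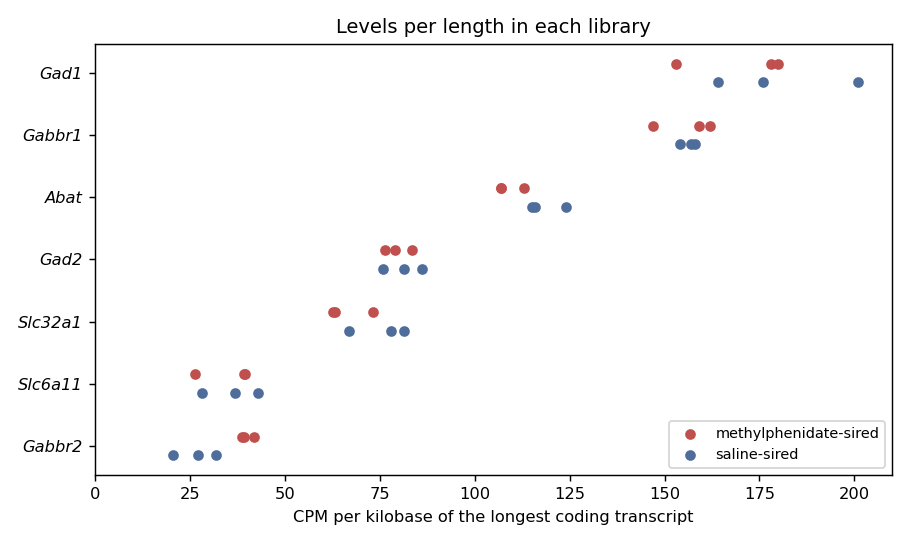
Level per length, in CPM per kilobase of the longest coding transcript (horizontal axis), of the members in each library, methylphenidate-sired in red above saline-sired in blue. Gabbr2 lies between 38.6 and 41.9 in the methylphenidate-sired libraries and between 20.5 and 31.8 in the saline-sired ones.

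The receptor subunits are described first, because the largest and the smallest difference of the members fell within this pair. The sequences that precede a listed RefSeq start of each gene are given as a description of their letters only. Below are the 250 bases upstream of each start (RefSeq, GRCm38.p6, 5′ to 3′ on the gene's strand; Gabbr1 at chr17:37045716-37045965, plus strand, and Gabbr2 at chr4:46991715-46991964, minus strand), with capitals marking matches to GGGCGG, the GC box, on either strand.
Gabbr1: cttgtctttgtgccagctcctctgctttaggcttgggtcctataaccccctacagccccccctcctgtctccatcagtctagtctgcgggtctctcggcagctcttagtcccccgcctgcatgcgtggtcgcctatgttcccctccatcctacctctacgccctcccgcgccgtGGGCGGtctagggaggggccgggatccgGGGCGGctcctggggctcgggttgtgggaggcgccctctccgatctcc
Gabbr2: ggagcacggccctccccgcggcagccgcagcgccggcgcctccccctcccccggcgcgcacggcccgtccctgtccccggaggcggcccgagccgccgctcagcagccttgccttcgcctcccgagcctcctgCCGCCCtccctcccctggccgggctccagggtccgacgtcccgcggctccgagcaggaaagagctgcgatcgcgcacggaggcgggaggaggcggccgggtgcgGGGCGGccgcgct
Each window holds 2 GC boxes, a motif found in 32.7% of the 32851 promoter windows of the same length. Neither holds CCAAT (33.8% of windows), TATAAA (12.4%) or the cAMP response element TGACGTCA (1.55%), all searched on both strands, and no matches overlapped. The Gabbr2 window is 80.8% G and C, above 99.0% of all windows, and the Gabbr1 window is 66.0% G and C.

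Gabbr2 (Gene ID 242425, chromosome 4, 46662318 to 46991714, minus strand) had 226, 222 and 241 CPM in methylphenidate-sired libraries 2, 4 and 6, against 156, 118 and 183 CPM in saline-sired libraries 3, 4 and 5. Every methylphenidate-sired library lay above every saline-sired one, and the saline-sired libraries spread more widely. The means were 230 ± 9.99 CPM in the methylphenidate-sired and 153 ± 32.5 CPM in the saline-sired group (SD, n = 3 each). The log2 fold change was 0.59 (SE 0.14, 95% interval 0.28 to 0.91), the 104th smallest p of 17874 genes, and it did not pass edgeR's test (unadjusted p = 0.00242, edgeR adjusted p = 0.400). DESeq2 gave the same log2 fold change and a DESeq2 adjusted p of 0.00246. Without saline-sired library 4, the lowest library, the log2 fold change was 0.44 (edgeR adjusted p = 0.491), and without saline-sired library 5, the highest of its group, it was 0.76 (edgeR adjusted p = 0.0892). With saline-sired libraries 3 and 4 both left out it was 0.33.

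Gabbr1 (Gene ID 54393, chromosome 17, 37045966 to 37074305) had 851, 832 and 769 CPM in methylphenidate-sired libraries 2, 4 and 6, and 825, 806 and 829 CPM in saline-sired libraries 3, 4 and 5. The groups overlapped, and methylphenidate-sired libraries held both the highest and the lowest value. The fold change was 0.997 with a 95% interval of 0.904 to 1.10. Gabbr1 makes forms with different first exons from separate starts, and the gene counts sum over them.

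Within each library, the ratio of Gabbr1 to Gabbr2 counts does not depend on how libraries are scaled. It was 3.76, 3.75 and 3.19 in methylphenidate-sired libraries 2, 4 and 6, against 5.28, 6.81 and 4.53 in saline-sired libraries 3, 4 and 5. All 3 methylphenidate-sired ratios lay below all saline-sired ones. The difference on the log2 scale was -0.62 (SE 0.19), with an exact two-sided permutation p of 0.1, the smallest that 3 against 3 libraries allow, and 0.3 after adjustment over the 3 ratios computed.

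**Figure D3:**
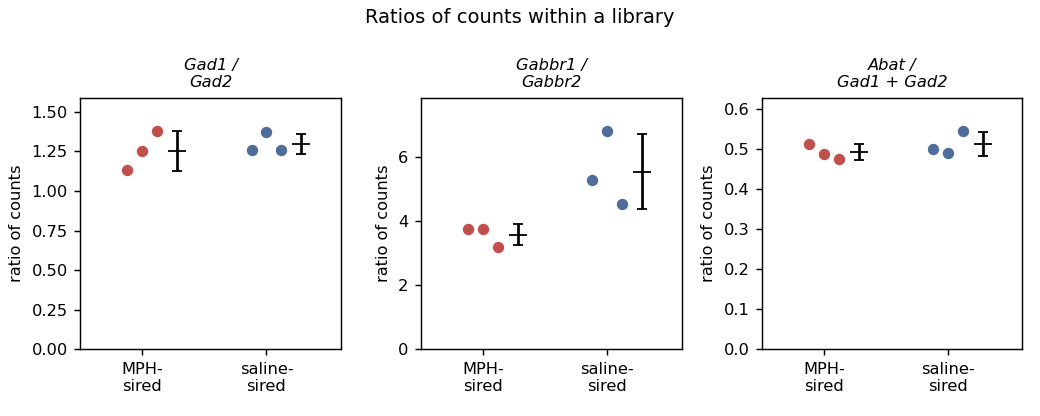
Ratios of read counts within a library (vertical axes, from 0) for 3 comparisons, with methylphenidate-sired libraries in red and saline-sired ones in blue; bars are the mean ± SD of 3 libraries. The groups separate only for Gabbr1 to Gabbr2, at 3.19 to 3.76 in methylphenidate-sired and 4.53 to 6.81 in saline-sired libraries.

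The level of Gabbr2 followed the order of the cortical excitatory markers except between methylphenidate-sired libraries 2 and 4, where Gabbr2 had 226 and 222 CPM. All 10 markers of that list had positive fold changes (median log2 fold change 0.86). Of these, 8 reached an unadjusted p under 0.05 in edgeR, against 5.07% of all genes that were higher at that level. Their summed level was 967, 1020 and 1150 CPM in methylphenidate-sired libraries 2, 4 and 6, and 623, 356 and 805 CPM in saline-sired libraries 3, 4 and 5. A large part of this sum is Slc17a7, the vesicular glutamate transporter gene that defines these neurons. It had 540, 570 and 616 CPM in methylphenidate-sired libraries 2, 4 and 6, against 337, 163 and 438 CPM in saline-sired libraries 3, 4 and 5. Gabbr2 and the marker sum were both lowest in saline-sired library 4, next in 3 and then in 5, and both were highest in methylphenidate-sired library 6. Gabbr1 did not follow this order and was lowest in methylphenidate-sired library 6. The part of cortical cells in the Gabbr2 difference was not tested, and in RNA from whole tissue a change in the number of cells of a type and a change in RNA per cell cannot be told apart.

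**Figure D4:**
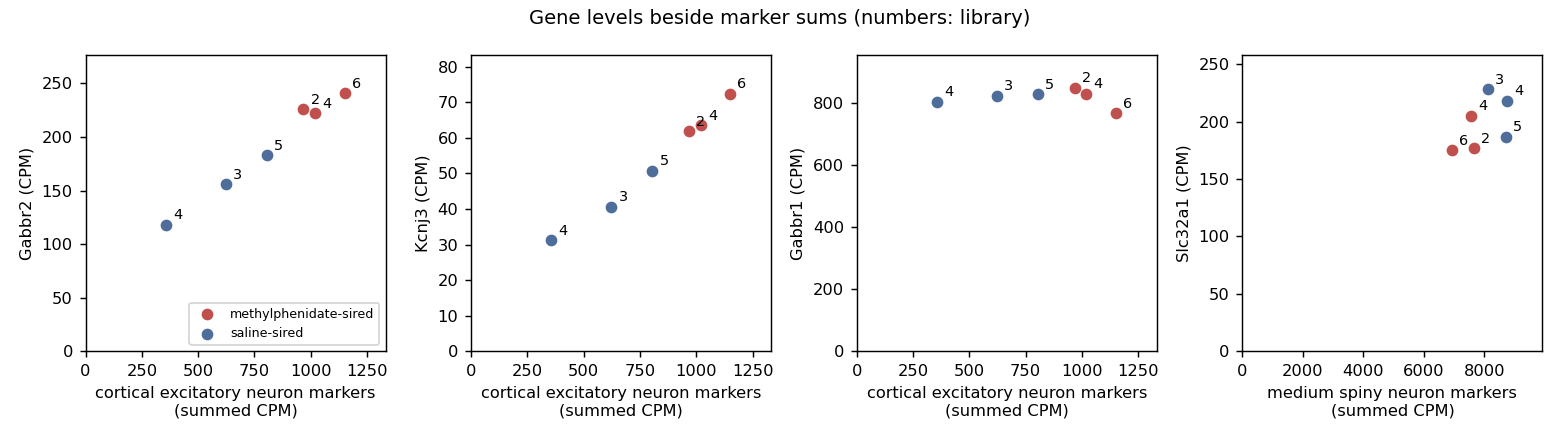
Level of Gabbr2, Kcnj3 and Gabbr1 against the summed level of 10 cortical excitatory neuron markers, and of Slc32a1 against that of 12 medium spiny neuron markers (all in CPM, axes from 0), with methylphenidate-sired libraries in red, saline-sired ones in blue and the library number beside each point. Gabbr2 and Kcnj3 are lowest in saline-sired library 4, where the cortical markers sum to 356 CPM, and highest in methylphenidate-sired library 6, where they sum to 1150 CPM, while Gabbr1 lies between 769 and 851 CPM throughout.

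The decarboxylases Gad1 and Gad2 catalyse the same reaction, and by average CPM they ranked at the 99.0th and 98.6th percentile of the genes tested. Their upstream windows share no match to the motifs searched, and are shown because the isoenzymes are transcribed in the same neurons. Each window precedes a start listed in the promoter table that lies inside the gene span given below, whose first base is further upstream. Capitals mark GC box, CCAAT and TATAAA matches on either strand (RefSeq, GRCm38.p6, 5′ to 3′, plus strand; Gad1 at chr2:70561879-70562128 and Gad2 at chr2:22622077-22622326).
Gad1: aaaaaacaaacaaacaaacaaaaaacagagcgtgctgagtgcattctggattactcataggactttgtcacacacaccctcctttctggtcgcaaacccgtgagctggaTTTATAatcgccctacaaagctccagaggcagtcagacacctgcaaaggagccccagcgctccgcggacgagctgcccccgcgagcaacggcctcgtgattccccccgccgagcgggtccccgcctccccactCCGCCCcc
Gad2: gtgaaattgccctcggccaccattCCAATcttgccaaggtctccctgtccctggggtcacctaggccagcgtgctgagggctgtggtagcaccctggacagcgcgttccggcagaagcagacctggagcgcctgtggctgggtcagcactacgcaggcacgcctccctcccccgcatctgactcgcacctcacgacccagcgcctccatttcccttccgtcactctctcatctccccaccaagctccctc
The Gad1 window has a TATAAA match at position -141 from that start and a GC box at -8, and the Gad2 window has a CCAAT match at -226. Such matches describe the letters of the windows and are not evidence of a site in use.

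Gad1 (Gene ID 14415, chromosome 2, 70561303 to 70602014), which encodes the form spread through the cytosol, had 514, 596 and 605 CPM in methylphenidate-sired libraries 2, 4 and 6 and 591, 676 and 549 CPM in saline-sired libraries 3, 4 and 5. The ranges overlapped, and the fold change was 0.945 (95% interval 0.811 to 1.10, edgeR adjusted p = 0.832). Gad2 (Gene ID 14417, chromosome 2, 22621015 to 22693877), which encodes the form concentrated at nerve terminals, had 454, 479 and 439 CPM in methylphenidate-sired libraries 2, 4 and 6 and 468, 494 and 436 CPM in saline-sired libraries 3, 4 and 5. Its values varied little in both groups, with a coefficient of variation of 4.41% in methylphenidate-sired and 6.19% in saline-sired libraries, and its fold change was 0.981 (95% interval 0.879 to 1.09, edgeR adjusted p = 0.936). The Gad1 to Gad2 count ratio was 1.25 ± 0.123 in the methylphenidate-sired and 1.30 ± 0.0612 in the saline-sired group (SD, n = 3 each, exact two-sided permutation p = 0.5). The 9 interneuron markers, most of them of GABA neurons, summed to 427 to 490 CPM in methylphenidate-sired libraries and to 404 to 444 CPM in the saline-sired ones, and these ranges overlapped. The sum joins genes of opposite direction. Groups did not overlap in 3 of the 9, against 14.8% of all genes. Vip and Cck were higher (log2 fold changes 0.92 and 0.80) and Chat lower (-0.33), and none passed edgeR's test. Cck had 94.5, 100 and 104 CPM in methylphenidate-sired libraries 2, 4 and 6. In saline-sired libraries 3, 4 and 5 it had 64.5, 29.2 and 78.5 CPM. That is the library order of the summed cortical excitatory markers, and Vip was also lowest in saline-sired library 4 (2.54 CPM). The part of cortical cells in the levels of Cck and Vip was not tested.

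Slc32a1 (Gene ID 22348, chromosome 2, 158607260 to 158615747) encodes the vesicular transporter that loads GABA and glycine into synaptic vesicles. It had 177, 205 and 175 CPM in methylphenidate-sired libraries 2, 4 and 6 and 228, 218 and 187 CPM in saline-sired libraries 3, 4 and 5. The groups overlapped, since methylphenidate-sired library 4 lay above saline-sired library 5. The log2 fold change was -0.18 (SE 0.09, 95% interval -0.40 to 0.03, edgeR adjusted p = 0.600), and without saline-sired libraries 3 and 4 it was -0.01. An antisense gene, Gm14205, overlaps 24.9% of its exon bases in GENCODE vM21, and with strandedness not given, reads of this stretch could come from either gene; no row of the table matched Gm14205 by symbol, so its own counts were not analysed here. The medium spiny neuron markers, genes of cells that use this transporter, had negative fold changes in 12 of 12 (median log2 fold change -0.21). Of these, 8 were at an unadjusted p under 0.05 in edgeR, against 3.95% of all genes that were lower at that level. Slc32a1 did not follow the library order of their summed level. Saline-sired library 5 had a marker sum of 8710 CPM and 187 CPM of Slc32a1, while methylphenidate-sired library 4 had 7570 and 205 CPM. The part of these cells in the level of Slc32a1 was not tested.

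Slc6a11 (Gene ID 243616, chromosome 6, 114131241 to 114249886) encodes a plasma membrane GABA transporter of astrocytes. It varied widely within both groups, at 109, 163 and 162 CPM in methylphenidate-sired libraries 2, 4 and 6 and 152, 177 and 116 CPM in saline-sired libraries 3, 4 and 5. Methylphenidate-sired library 2 and saline-sired library 5 were both low, and the coefficients of variation were 21.1% in methylphenidate-sired and 20.6% in saline-sired libraries. The fold change was 0.973 with a wide interval of 0.728 to 1.30 (edgeR adjusted p = 0.970). The 8 astrocyte markers together summed to 3750 to 4140 CPM in methylphenidate-sired libraries and to 3430 to 4040 CPM in the saline-sired ones. Slc1a2 alone ran from 2490 CPM in saline-sired library 3 to 3180 CPM in methylphenidate-sired library 2. The sum therefore says little about the other astrocyte markers, and the part of astrocytes in the level of Slc6a11 was not tested.

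Abat (Gene ID 268860, chromosome 16, 8513429 to 8621568) had 498, 524 and 497 CPM in methylphenidate-sired libraries 2, 4 and 6, against 531, 574 and 538 CPM in saline-sired libraries 3, 4 and 5. The groups did not overlap, but the gap between the nearest libraries was small, at 524 CPM in methylphenidate-sired library 4 and 531 CPM in saline-sired library 3. The log2 fold change was -0.11 (SE 0.06, 95% interval -0.25 to 0.03, unadjusted p = 0.0980, edgeR adjusted p = 0.620). Set against synthesis, the ratio of Abat to summed Gad1 and Gad2 counts was 0.492 ± 0.0195 in the methylphenidate-sired and 0.513 ± 0.0291 in the saline-sired group, with overlapping ranges (SD, n = 3 each, exact two-sided permutation p = 0.4).

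**Figure D5:**
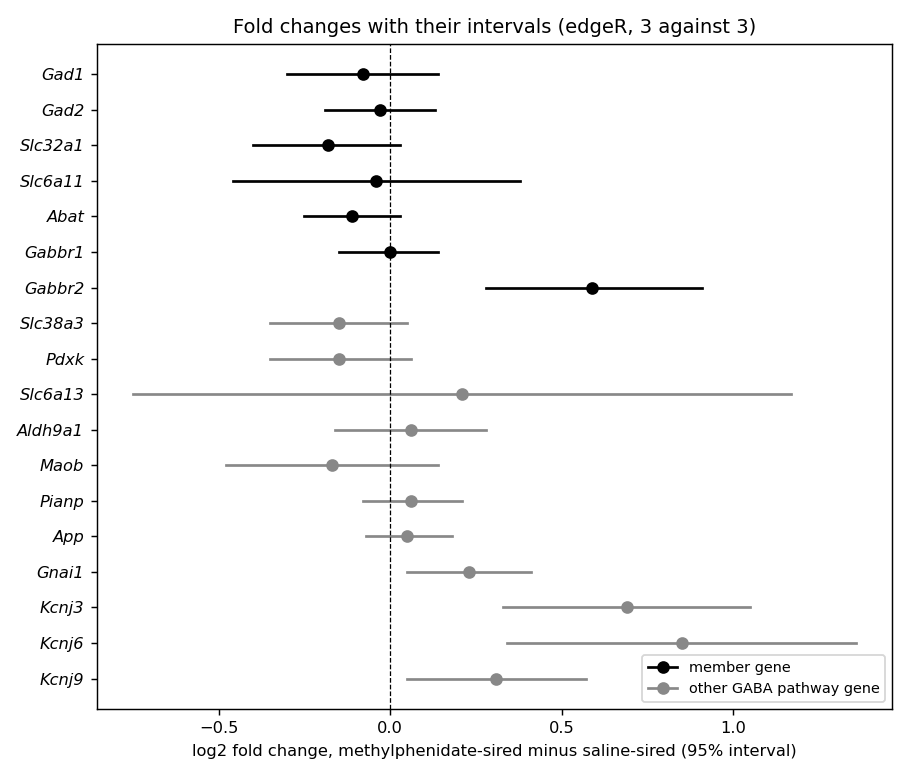
Log2 fold changes of the members (black) and of 11 other GABA pathway genes (grey), methylphenidate-sired minus saline-sired, with 95% intervals from the edgeR fit over 3 against 3 libraries (horizontal axis). The intervals of Gabbr2, Kcnj3, Kcnj6, Kcnj9 and Gnai1 lie above 0, and those of the other 6 members hold 0; none of these genes passed the adjusted test.

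Of 33 further genes of the pathway in 5 lists, 32 were tested and 0 passed edgeR's test; 4 had an unadjusted p under 0.05, all of them higher, and DESeq2 called 1, Kcnj3, while over all genes 5.07% were higher at that unadjusted p. All 4 belonged to the list of G proteins and channels that GABA-B receptors act through, where 7 of 8 genes had positive fold changes (median log2 fold change 0.27). Groups did not overlap in 4 of these 8 genes, against 14.8% of all genes. The GIRK subunit gene Kcnj3 had 61.8, 63.6 and 72.4 CPM in methylphenidate-sired libraries 2, 4 and 6, against 40.6, 31.2 and 50.8 CPM in saline-sired libraries 3, 4 and 5. The groups did not overlap, and the saline-sired libraries followed the same order as for Gabbr2. The log2 fold change of Kcnj3 was 0.69 (SE 0.16, edgeR adjusted p = 0.400, DESeq2 adjusted p = 0.00282), and it was 0.38 without saline-sired libraries 3 and 4. The lincRNA gene Gm26794 overlaps 31.1% of its exon bases on the other strand, which leaves the counts of Kcnj3 uncertain; Gm26794 matched no row by symbol either.

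The partner subunit gene Kcnj6 had 69.9, 58.2 and 70.9 CPM in methylphenidate-sired libraries 2, 4 and 6, against 34.0, 25.2 and 51.4 CPM in saline-sired libraries 3, 4 and 5. Its log2 fold change was 0.85 (SE 0.22, edgeR adjusted p = 0.428), 0.37 without saline-sired libraries 3 and 4, and 1.17 without saline-sired library 5. The groups did not overlap in Kcnj9, a further GIRK subunit gene (log2 fold change 0.31, SE 0.11), or in Gnai1, which encodes an inhibitory G protein alpha subunit (0.23, SE 0.08). Like Gabbr2, all 4 genes were lowest in saline-sired library 4, the library with the lowest summed level of cortical markers, whose part in these values was not tested. Gnao1, which encodes a further G protein alpha subunit, averaged 823 CPM in methylphenidate-sired and 816 CPM in saline-sired libraries.

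The other lists held no gene at an unadjusted p under 0.05, and the genes of lowest p in each are given. For the supply of glutamate and cofactor to the decarboxylases, 6 of 10 fold changes were positive (median log2 0.01). In that list Slc38a3, a glutamine transporter gene, and Pdxk, the kinase gene of the pyridoxal phosphate cofactor that both decarboxylases and Abat need, were each at -0.15 on the log2 scale (SE 0.09 each). For 5 further enzyme genes listed around GABA metabolism, not all of them of its breakdown, 4 fold changes were negative (median log2 -0.03). Maob, a monoamine oxidase gene, was at -0.17 (SE 0.14) and Aldh9a1, an aldehyde dehydrogenase gene, at 0.06 (SE 0.10). For the proteins that bind GABA-B receptors, 5 of 8 were positive (median log2 0.04), with Pianp and App, whose products bind the Gabbr1 protein, at 0.06 (SE 0.06) and 0.05 (SE 0.05). The Kctd genes of auxiliary receptor subunits belong to this list, and of these Kctd16 averaged 212 CPM in methylphenidate-sired and 217 CPM in saline-sired libraries. Of the other GABA transporter genes, Slc6a13 averaged 1.93 CPM in methylphenidate-sired and 1.66 CPM in saline-sired libraries, a log2 difference of 0.21 (SE 0.42), and Slc6a12, at 0.345 CPM or less, missed the filter.

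Profiles over the 6 libraries were compared by the root mean square distance of log2 CPM, each gene centred on its mean. The candidates were 10216 genes whose log2 CPM averaged 3 or more, with predicted genes (Gm number, Rik or LOC symbols) and pseudogenes left out. The comparison is a description of 6 libraries, and with so many candidates small distances are found for any gene. The profile of Gabbr2, which itself deviated by 0.359 from its mean, was closest to those of Ppm1e, a protein phosphatase gene (distance 0.0223), and Shank1, a postsynaptic scaffold gene (0.0461), which had log2 fold changes of 0.60 and 0.57. Its nearest member was Gabbr1 at 0.362, which ranked 4346th among these genes. Gad2 and Abat were each other's nearest member, at 0.0581, and Gad1 also lay nearest to Abat, at 0.0925. The profiles of Gad1 were closest to Elovl5 (0.0282) and Ache (0.0323), of Gad2 to Adipor1 (0.0179) and Zpr1 (0.0190), and of Slc32a1 to Lsm7 (0.0374) and Ddx39 (0.0378). Abat was closest to Hypk (0.0170) and Syt3 (0.0187), Gabbr1 to Epb41l1 (0.0139) and Trrap (0.0145), and Slc6a11 to Srd5a1 (0.0178) and Zswim4 (0.0615).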

How the data were processed

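Per the submitters' processing notes, build mm10 was used with HISAT2 2.1.0, StringTie 2.1.3b, bcl2fastq 2.20.0 and Trimmomatic; settings, strandedness and the treatment of multi-mapping reads are not stated there. The authors deposited whole-number read counts per RefSeq gene, not normalized; 12 further columns of FPKM and TPM were not used. Columns were tied to a group by name only, so sex could not be a covariate. Counts were tested with edgeR 4.0.16 (R 4.3.3, TMM, filterByExpr, quasi-likelihood, Benjamini-Hochberg over 17874 genes, threshold 0.05), with DESeq2 1.42.0 and limma 3.58.1 as alternatives. The edgeR fit was also run on simulated counts. The changes simulated were larger than that of any member, so differences of the members' size were not checked in this way. SE and 95% intervals were derived from the F statistic. CPM uses TMM-scaled library sizes, and per-length levels use the longest coding transcript of GENCODE vM21. Ratios were compared by exact permutation over libraries. At 95% identity over 200 bases (blastn 2.17.0), no member matched another gene except Slc32a1, which matched its antisense gene. Coordinates and the promoter windows, which 6 of the 7 members have, come from RefSeq on GRCm38.p6, the assembly that mm10 names. Members and lists were chosen with earlier results of these data known. Named were all members, the 2 genes of lowest p per pathway list as reported and the 2 nearest profiles per member; Kcnj9, Gnai1, Gnao1 and Kctd16 were named after their values were seen. Some genes of the lists and a ratio planned with one of them are not reported here.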

Additional observations from a re-analysis of the deposited data

How the results depend on the processing

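The number of genes past the test was 4, and 183 with DESeq2, 0 without saline-sired libraries 3 and 4 together (an alternative chosen after seeing the data, which leaves a single saline-sired library assumed to vary like the others) and between 1 and 4 with each library left out, lowest without methylphenidate-sired library 6. Members past the test numbered 0 except with DESeq2, where Gabbr2 made it 1. Another scaling, no filter, limma-voom and leaving out each library changed no member's side of the threshold. Gabbr2, Slc32a1 and Abat kept their direction under all 11 alternatives, with log2 fold changes from 0.33 to 0.76, -0.25 to -0.01 and -0.14 to -0.08. The differences close to 0 did not. With each library left out, Gad1 ran from -0.14 to 0.00, Gad2 from -0.06 to 0.02, Slc6a11 from -0.17 to 0.14 and Gabbr1 from -0.02 to 0.04. The log2 ratio difference of Gad1 to Gad2 ran from -0.13 to 0.02. Slc6a13, at 0.21 with all libraries (SE 0.42), ran from -0.23 to 0.43. Without saline-sired libraries 3 and 4, Gad1 was at 0.06, Gad2 at 0.07, Slc6a11 at 0.31, Slc38a3 at 0.02 and Maob at 0.06, while Slc6a13, a gene of low counts, was at 1.10, and with no filter Gabbr1 was at 0.01; the cause was not tested. No paired analysis was possible because neither the labels nor the column numbers give a pairing of animals between the groups. With 3 libraries a group, the number of animals and not depth limits the precision for the members. For Slc6a13 depth matters as well, since at its lowest count of 28 counting alone contributed a coefficient of variation of 18.9%.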
